A study of Mus musculus with 2 samples.

Results

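Purkinje cell genes are genes used as markers of the Purkinje neuron of the cerebellum. Pcp2, Calb1, Car8, Itpr1, Pvalb, Slc1a6, Pcp4 and Ppp1r17 were taken by name from the gene names of the array. No ratio entered the match by name, but the 8 genes were chosen with earlier results of these data known. These 8 genes had 13 probes and 22 spots on each array, of 41174 probes that were not controls and 19505 genes with a RefSeq symbol. The gene name matched for 11 of the probes. The other 2, both of Ppp1r17, are listed under its older name Gsbs and were matched by accession or synonym. Total RNA of whole brain from female C57BL/6J dams, 8 weeks old and at postpartum day 0, was hybridized to 2 two-colour arrays. The first array compared TDAG51-/- dams with TDAG51+/+ dams, and the second compared TDAG51-/- dams with TDAG51-/-Tg2 dams. TDAG51 is the protein of the Phlda1 gene, which was deleted in the TDAG51-/- dams, and the TDAG51-/-Tg2 dams carried the same deletion with a TDAG51 transgene of line 2 under the brain-specific BAI1-AP4 promoter, described as active mainly in cerebral cortex and hippocampus. The TDAG51-/- sample was in Cy3 and the control in Cy5 on both arrays.

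The Purkinje cell is the large GABA-releasing neuron whose axon is the output of the cerebellar cortex. Its dendrites receive granule cell and climbing fibre input through glutamate receptors, and metabotropic glutamate signalling there releases calcium from internal stores through the receptor encoded by Itpr1. Several of the 8 genes handle that calcium, and Pcp2, Slc1a6, Car8 and Ppp1r17 are found mostly in Purkinje cells in the adult brain, whereas Calb1, Itpr1, Pvalb and Pcp4 are also abundant in forebrain neurons.

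Each comparison was made on 1 array without a dye swap, and the number of dams in each sample is not stated in the labels. No test across animals was possible, so values are given without a p-value and their precision is limited by the number of arrays. Both comparisons have TDAG51-/- dams in Cy3 and are not independent of each other. Phlda1 itself read 350 for TDAG51-/- and 7283 for TDAG51+/+ on the array that held both, 17.3-fold lower in the former. Phlda1 was near background on the second array in both channels, at 44.1 in TDAG51-/- and 50.5 in TDAG51-/-Tg2, so no TDAG51 signal was seen here in the sample labelled TDAG51-/-Tg2, and its label is not borne out by this probe. Whether the probe lies in the part of the gene that the transgene holds was not tested, and the sample is called by its label throughout. The TDAG51-/- readings also differed between the arrays, at 350 and 44.1. Median probe intensities were between 321.6 and 368.5 in the 4 channels. Among 245 probes with at least 5 spots, spots of 1 probe had a median SD of 0.06 in the log2 ratio on each array, which is technical error and not the spread between dams.

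All 13 probes were well above background in all 4 channels, so each ratio rests on measured signal on both sides. Saturation was marked for 1 probe, the brighter of the 2 Pcp2 probes, in Cy3 on both arrays. The probes are shown because they read neighbouring parts of the same transcript and only the brighter one was at the limit of the scanner. Capitals mark the 19 bases that both probes hold.
Pcp2 probe A_51_P448677: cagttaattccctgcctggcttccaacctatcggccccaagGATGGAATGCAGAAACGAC
Pcp2 probe A_52_P643832: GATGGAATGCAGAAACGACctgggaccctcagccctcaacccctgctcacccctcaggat
On the mm7 build of the array files, A_52_P643832 is placed at chr8:3585976-3586035 on the minus strand. A_51_P448677 is placed at chr8:3586017-3587025, so its 60 bases span 1009 bases of the genome.

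Upstream sequence from RefSeq (GRCm38.p6) was held for Pcp2, Slc1a6, Pvalb and Pcp4 in 8 windows of 250 bases before a transcription start, and not for Calb1, Car8, Itpr1 and Ppp1r17. Rora, a nuclear receptor needed for the Purkinje cell to mature, recognizes sites with AGGTCA. That motif was searched on both strands (as AGGTCA or TGACCT), and 14.0% of 32851 windows of the same length held it. It was in 4 of the 8 windows, 3 of Pcp2 and 1 of Pcp4, and in none of Slc1a6 and Pvalb. The windows of Pcp2 overlap, and a pair of them hold the same match. A match is a description of letters and not a bound site. The most upstream Pcp2 window and the Pcp4 window are shown, with the motif in capitals, because both hold it while Pcp2 had a high ratio and Pcp4 the lowest ratio of the members described below.
Pcp2 chr8:3625548-3625797, minus strand: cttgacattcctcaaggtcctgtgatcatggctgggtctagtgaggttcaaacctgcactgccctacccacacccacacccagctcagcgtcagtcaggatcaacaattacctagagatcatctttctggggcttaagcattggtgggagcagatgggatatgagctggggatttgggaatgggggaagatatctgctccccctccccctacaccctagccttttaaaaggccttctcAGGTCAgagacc
Pcp4 chr16:96467356-96467605, plus strand: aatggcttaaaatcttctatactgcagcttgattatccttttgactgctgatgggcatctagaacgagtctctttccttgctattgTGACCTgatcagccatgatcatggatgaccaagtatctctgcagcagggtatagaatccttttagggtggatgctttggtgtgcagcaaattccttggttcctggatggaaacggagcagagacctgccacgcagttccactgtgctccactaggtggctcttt
The match began 12 bases before the start in Pcp2 and 164 bases before it in Pcp4, where it was on the opposite strand.

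Counted by the brightest probe of each gene, 5 of the 8 Purkinje cell genes were at least 2-fold higher in TDAG51-/- than in TDAG51+/+ dams, against 4.55% of 17320 detected genes. In comparison with TDAG51-/-Tg2 dams, 6 of the 8 were at least 2-fold higher, against 4.42% of 17060. Pcp2, Car8, Pvalb, Slc1a6 and Ppp1r17 were at least 2-fold higher than in both controls, against 2.61% of 16863 genes, and Calb1 was added in the second comparison. Calb1 lost that call with median centring and with no normalization, which left 5 genes. No member gene was at least 2-fold lower by its brightest probe after loess, where the share was 4.9% of all genes against TDAG51+/+, 4.09% against TDAG51-/-Tg2 and 1.67% against both. Pcp4 passed that threshold against TDAG51+/+ with no normalization (log2 ratio of -1.13), and against both controls by the median of its probes (-1.15 and -1.01). Over the 8 genes the log2 ratio had a median of 2.03 in each comparison, while the medians of all genes were -0.01 and 0.01. A different share of Purkinje cells in a brain sample and a different amount of these RNAs in each cell cannot be told apart in whole tissue.

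**Figure D1:**
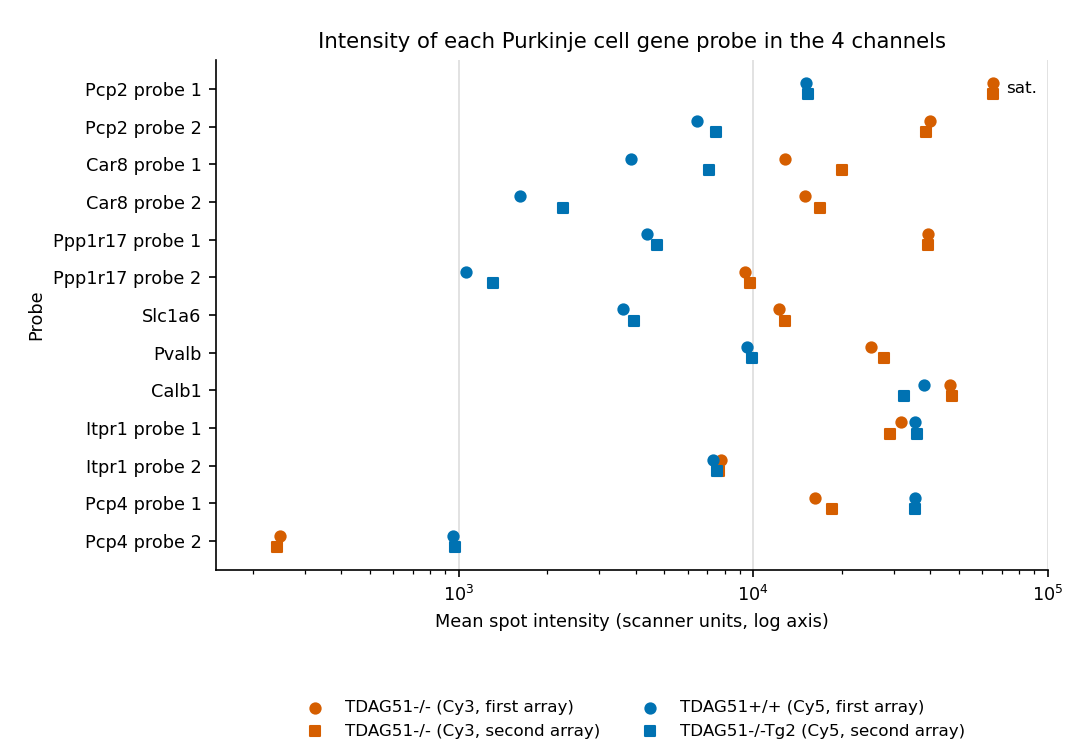
Mean spot intensity of the 13 probes (log axis, scanner units) for TDAG51-/- in Cy3 on both arrays (orange) and the TDAG51+/+ or TDAG51-/-Tg2 control in Cy5 (blue), circles for the first array and squares for the second; probe 1 of a gene is its brightest and "sat." marks saturated Cy3. The orange points of Pcp2, Car8, Ppp1r17, Slc1a6 and Pvalb lie to the right of the blue ones on both arrays, and those of Pcp4 lie to the left.

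The 4 genes found mostly in Purkinje cells were all at least 2-fold higher in TDAG51-/- than in each control. Ppp1r17, or G-substrate, is phosphorylated by the cGMP-dependent protein kinase and then inhibits protein phosphatases. Its brighter probe (A_52_P355124, chr6:55995734-55995793) read 39247 in TDAG51-/- and 4378 in TDAG51+/+ on the first array. On the second array it read 39279 in TDAG51-/- and 4719 in TDAG51-/-Tg2. The TDAG51-/- samples were almost equal and both controls were far below them, for log2 ratios of 3.67 and 3.58 after loess (12.7-fold and 12.0-fold higher). With no normalization the log2 ratios were 3.16 and 3.05. The other Ppp1r17 probe (A_51_P318430, chr6:55995306-55995362) read 9371 against 1060 and 9742 against 1310, 10.5-fold and 9.03-fold higher. By its brightest probe, Ppp1r17 ranked 8 from the top of 17320 genes and 11 from the top of 17060.

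Pcp2 encodes a modulator of G protein signalling that is the classical Purkinje cell marker. The brighter probe was saturated at 65284 in TDAG51-/- on both arrays, and read 15146 in TDAG51+/+ and 15333 in TDAG51-/-Tg2. With TDAG51-/- at the limit of the scanner, these signals bound the ratio from below only within a given scaling. On the loess scale the probe was at least 6.72-fold higher against TDAG51+/+ and at least 6.71-fold higher against TDAG51-/-Tg2, and its log2 ratios were 2.11 and 2.09 with no normalization. The second probe, which shares the 19 bases shown above and was not saturated, read 39987 and 38716 in TDAG51-/-. It read 6458 in TDAG51+/+ and 7504 in TDAG51-/-Tg2. This probe had log2 ratios of 3.17 and 2.93 after loess, where the saturated one had 2.75 on each array.

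Slc1a6 encodes EAAT4, the glutamate transporter of Purkinje cell dendrites. Its only probe (A_51_P283016, chr10:78469306-78469365) read 12242 in TDAG51-/- and 3610 in TDAG51+/+, and 12833 in TDAG51-/- and 3932 in TDAG51-/-Tg2. Both TDAG51-/- samples were above both controls, 4.40-fold and 4.32-fold after loess (log2 ratios of 2.14 and 2.11). With no normalization the log2 ratios were 1.76 and 1.70.

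Car8 encodes a carbonic anhydrase relative without catalytic activity that binds the Itpr1 receptor and lowers its affinity for inositol trisphosphate. Its brighter probe (A_51_P392005, chr4:8070545-8070604) read 12829 in TDAG51-/- and 3839 in TDAG51+/+ on the first array. Both channels of the second array were brighter, 20062 in TDAG51-/- and 7097 in TDAG51-/-Tg2. The ratio was similar on both arrays all the same, 4.37-fold and 4.02-fold higher (log2 ratios of 2.13 and 2.01). The other probe (A_52_P625118, chr4:8072704-8072763) read 15042 against 1617 and 16849 against 2260, 11.5-fold and 9.66-fold higher. The 2 Car8 probes thus had the same direction and unequal sizes, and the median of both probes gave log2 ratios of 2.83 and 2.64.

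For the 4 genes also abundant in forebrain neurons, the medians were 0.74 in the comparison with TDAG51+/+ and 0.79 in that with TDAG51-/-Tg2, compared with 2.44 and 2.43 for the other 4. The former fell to 0.22 and 0.30 with median centring and to 0.07 and 0.12 with no normalization, and the latter were 2.08 and 2.08, and 1.93 and 1.90. The lowest brightest-probe ratio among the genes mostly of Purkinje cells was 2.13 on the TDAG51+/+ array and 2.01 on the TDAG51-/-Tg2 array. The highest among the forebrain-abundant genes was that of Pvalb, 1.93 and 2.05. The groups were thus apart against TDAG51+/+. Against TDAG51-/-Tg2, Pvalb passed Car8 after loess, with offset 0 and by the scanner and deposited ratios. That overlap was absent with median centring (Car8 1.680, Pvalb 1.671) and with no normalization (1.497 and 1.488). It was also absent by the median of all probes, where Slc1a6 was lowest at 2.11 and Pvalb was at 2.05. Whether the groups overlapped there thus depended on the processing.

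Pvalb encodes parvalbumin, a calcium buffer of Purkinje cells, of molecular layer interneurons and of a class of cortical interneurons. Its probe (A_51_P500156, chr15:78274169-78274228) read 25082 in TDAG51-/- and 9515 in TDAG51+/+, and 27798 in TDAG51-/- and 9899 in TDAG51-/-Tg2. It was 3.82-fold and 4.14-fold higher in TDAG51-/- after loess (log2 ratios of 1.93 and 2.05). With no normalization the log2 ratios were 1.40 and 1.49.

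Calb1 encodes calbindin, a calcium buffer of Purkinje cells and of hippocampal and striatal neurons. It was the only member with repeated spots (A_51_P335801, chr4:15832543-15832602), 9 of them on the TDAG51+/+ array after 1 outlier was left out and 10 on the other. Its mean intensity was 46789 in TDAG51-/- and 38036 in TDAG51+/+, and 47211 in TDAG51-/- and 32563 in TDAG51-/-Tg2. Over the spots, the log2 ratio was 0.98 ± 0.05 (SD, 9 spots) against TDAG51+/+, from 0.91 to 1.07. Against TDAG51-/-Tg2 it was 1.22 ± 0.07 (SD, 10 spots), from 1.13 to 1.35. The log2 ratios of the spots did not overlap between the 2 arrays, but how often this held for other probes with repeated spots was not counted. The fold was 1.98 against TDAG51+/+, just under the 2-fold threshold, and 2.33 against TDAG51-/-Tg2. These sizes depended on the scaling, with log2 ratios of 0.45 and 0.72 after median centring and 0.30 and 0.54 with no normalization. Spots of 1 array share their RNA and labelling, so this spread is technical.

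Itpr1 encodes the inositol trisphosphate receptor of the calcium stores. The brighter probe (A_51_P269663, chr6:108645064-108645123) read 31678 in TDAG51-/- and 35485 in TDAG51+/+, and 29138 in TDAG51-/- and 36004 in TDAG51-/-Tg2. The unadjusted signal was thus dimmer in TDAG51-/- in both comparisons, and the log2 ratio became 0.49 and 0.35 once the dyes were balanced by loess. With median centring these values were -0.013 and -0.12, so a direction for Itpr1 depended on the scaling. The other probe (A_52_P118756, chr6:108644742-108644801) read 7772 in TDAG51-/- and 7294 in TDAG51+/+, and 7641 in TDAG51-/- and 7512 in TDAG51-/-Tg2. Its unadjusted signal was brighter in TDAG51-/-, unlike that of the brighter probe, and its log2 ratios were 0.50 and 0.45 after loess.

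Pcp4 encodes a small protein that speeds calcium exchange on calmodulin, and it is abundant in Purkinje cells and in the striatum. Its brighter probe (A_51_P253984, chr16:96907200-96907259) read 16190 in TDAG51-/- and 35360 in TDAG51+/+. On the second array it read 18595 in TDAG51-/- and 35425 in TDAG51-/-Tg2. Both TDAG51-/- values were below both controls, 1.44-fold and 1.23-fold lower (log2 ratios of -0.52 and -0.30). The other Pcp4 probe (A_52_P699171, chr16:96893185-96893244, a cDNA clone entry) was dim, at 248 against 960 and 241 against 974, and was 3.44-fold and 3.29-fold lower. Pcp4 was the only member below 0 on both arrays under each way of processing.

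**Figure D2:**
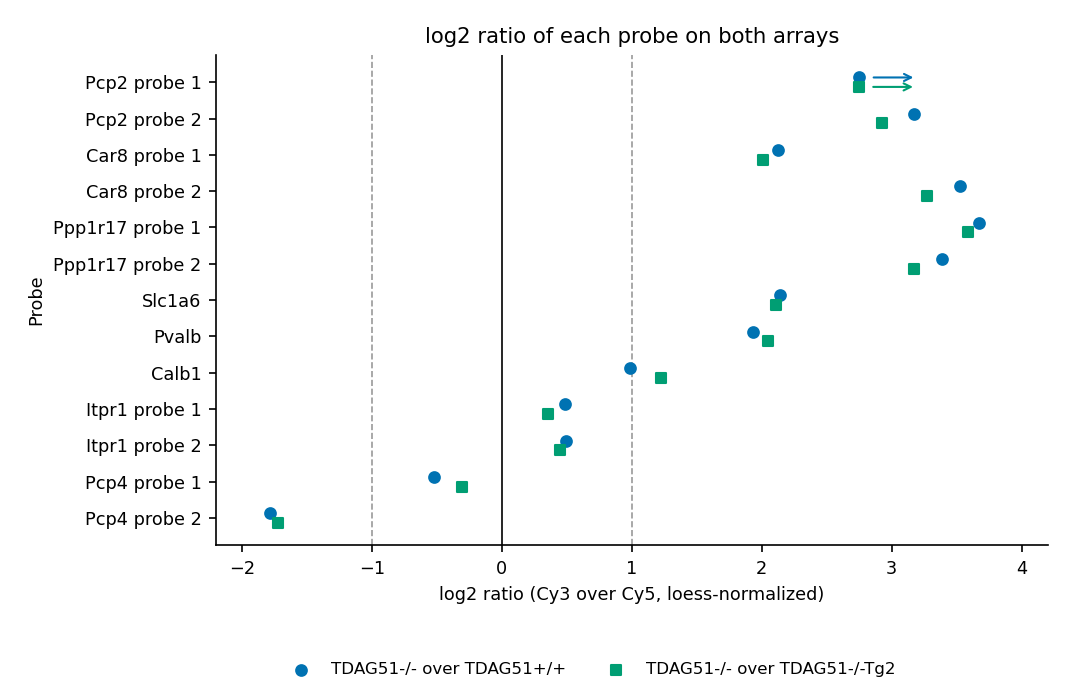
log2 ratio of each of the 13 probes, TDAG51-/- over TDAG51+/+ (blue circles) and over TDAG51-/-Tg2 (green squares), with dashed lines at 2-fold and arrows where Cy3 was saturated, so that the value is a lower bound on the loess scale. Ppp1r17 reaches 3.67, and the Pcp4 probes lie below 0.

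Of the 13 probes, 8 were at least 2-fold higher against TDAG51+/+, 9 against TDAG51-/-Tg2 and 8 against both, where the share over all probes was 2.69%. The dim Pcp4 probe was the 1 probe at least 2-fold lower on each array. In all 5 genes with more than 1 probe, the probes had the same direction after loess. The unadjusted signals of the Itpr1 probes differed in direction.

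**Figure D3:**
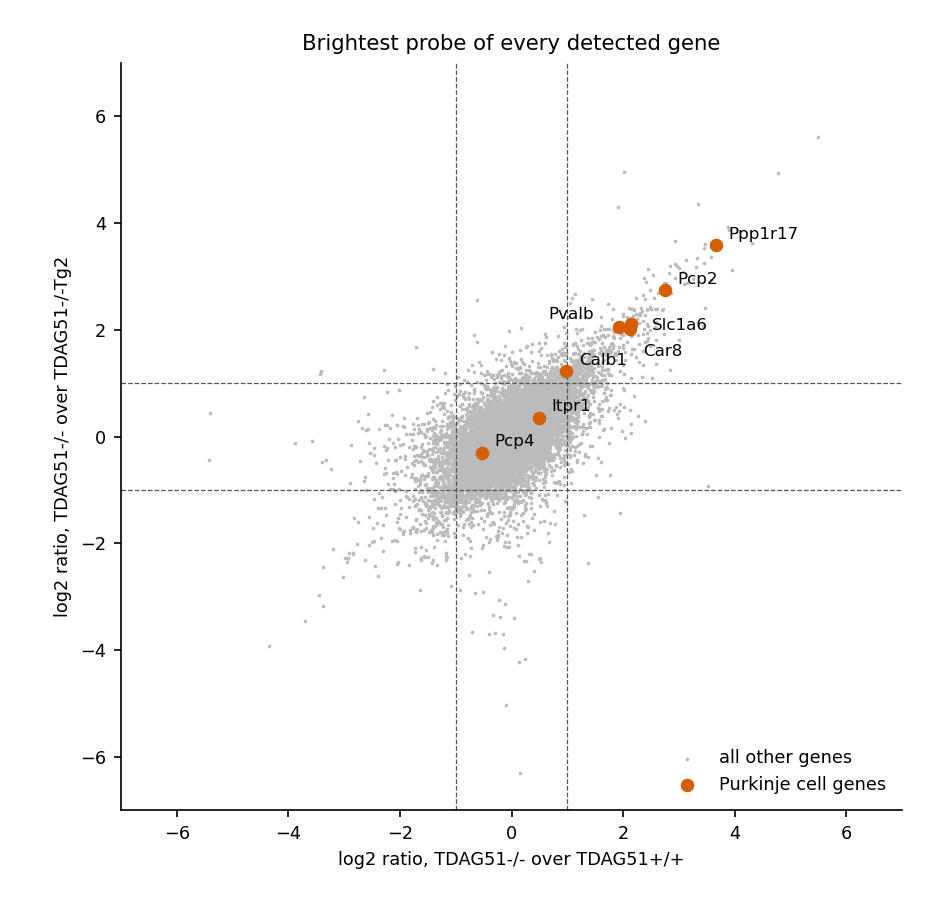
log2 ratio of the brightest probe of 16863 detected genes, TDAG51-/- over TDAG51+/+ (horizontal) and over TDAG51-/-Tg2 (vertical), with dashed lines at 2-fold and the 8 Purkinje cell genes in orange. The axes share the TDAG51-/- genotype in Cy3, so the positions on them are not independent. Pcp2, Car8, Pvalb, Slc1a6 and Ppp1r17 lie beyond 2-fold on both axes.

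The level of the members in the 2 control samples was compared between the Cy5 channels after scaling between arrays. The TDAG51-/-Tg2 minus TDAG51+/+ difference of the 8 brightest probes ran from -0.28 (Calb1) to 0.80 (Car8) on the log2 scale, with a median of 0.01. None was 2-fold apart, where the share over all genes was 6.46%. The corresponding difference between the TDAG51-/- channels, which hold the same genotype, ran from -0.16 (Itpr1) to 0.69 (Car8). Car8 was thus brighter on the second array in both dyes, and its other probe differed less, by 0.42 between controls and 0.16 between the TDAG51-/- channels. Control levels of Ppp1r17, Pcp2 and Slc1a6 by the brightest probe differed by 0.09, -0.03 and 0.09, and that of Pvalb by 0.03.

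The members were set beside 20 other genes of Purkinje cells, of which 19 were on the array and detected. In TDAG51-/-, 9 were at least 2-fold higher and 1 lower than in TDAG51+/+, and 8 were higher and 1 (Foxp2) lower than in TDAG51-/-Tg2. The shares over all genes were 4.55% higher and 4.9% lower against TDAG51+/+, and 4.42% and 4.09% against TDAG51-/-Tg2. Foxp2 was chosen for naming after its values were seen. Against both controls, 7 were higher and none lower, where the shares over all genes were 2.61% and 1.67%. The median log2 ratios of this list were 0.60 and 0.74, below those of the 4 mostly Purkinje members. Lhx1 and Lhx5, homeobox genes of Purkinje cell development, were 4.79-fold and 3.74-fold, and 3.25-fold and 2.88-fold higher.

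In the pathway that ends at the Itpr1 receptor, all 17 genes of the list were detected. Against TDAG51+/+, 4 were at least 2-fold higher and 3 lower, and against TDAG51-/-Tg2, 4 were higher and 1 lower. Over all genes, 4.55% were higher and 4.9% lower in the first comparison, and 4.42% and 4.09% in the second. The median log2 ratio was 0.21 and 0.16, and it turned to -0.28 and -0.38 with median centring, so the list as a whole had no direction that held. Homer3, which ties metabotropic glutamate receptors to Itpr1, was 2.58-fold and 2.81-fold higher. Plcb4, the phospholipase that makes inositol trisphosphate, was 2.91-fold and 2.31-fold higher. Both genes are also on the list of other Purkinje cell genes. Camk4, a calmodulin-dependent kinase, had log2 ratios of 1.15 and 0.88, and its probes ran from 0.89 to 1.71 and from 0.47 to 1.40. Itpka, which phosphorylates inositol trisphosphate and is abundant in forebrain, was at -1.32 and -0.85.

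Of 21 relatives of the members (calcium-binding proteins, carbonic anhydrases, glutamate transporters and others), the first array detected 19 and the second 20. Of these, 1 was at least 2-fold higher and 3 were lower against TDAG51+/+, where 4.55% of all genes were higher and 4.9% lower, and 3 were higher and 2 lower against TDAG51-/-Tg2, where the shares were 4.42% and 4.09%. The medians were -0.16 and -0.18. S100g, the small calbindin, had log2 ratios of 1.81 and 1.72, and Calb2, or calretinin, 0.90 and 1.18. Car4, a membrane carbonic anhydrase, had 0.91 and 1.57. Ocm, a relative of Pvalb, had -1.12 and -1.38, and Gpsm2, which shares a G protein binding motif with Pcp2, had -1.40 and -1.85, although its other probe was at -0.51 and -0.36. Slc1a3, the glial glutamate transporter, has no fold because its Cy5 channel was saturated and was the dimmer one only after loess.

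Some lists of markers of other cells and regions moved with the members and some in the opposite direction. Their part in the members' ratios was not tested. For the counts below, the shares over all genes were 4.55% higher and 4.9% lower against TDAG51+/+. Against TDAG51-/-Tg2 they were 4.42% and 4.09%. After loess all 11 granule cell genes were above 0 on both arrays, with 7 and 8 at least 2-fold higher and medians of 1.99 and 1.77. They were led by Gabra6 at 14.7-fold and 15.2-fold and Cbln3 at 5.88-fold and 6.07-fold. The other Cbln3 probe had log2 ratios of 1.41 and 1.33. With median centring or no normalization, not every granule cell gene stayed above 0 on both arrays. The summed Cy3 intensity of the granule cell genes in TDAG51-/- was 268381 and 267193, against 149126 in TDAG51+/+ and 139099 in TDAG51-/-Tg2. Some of these genes were saturated in Cy3 on both arrays, so the TDAG51-/- sums are lower bounds. The sums are unadjusted intensities and were not balanced between the dyes. Of 4 detected genes of other cerebellar cells, 2 were higher on each array but only 1 on both, with medians of 0.88 and 1.02. Hindbrain and brainstem genes had medians of 2.40 and 2.38 over 9 detected genes, with 6 and 7 of them at least 2-fold higher. In the opposite direction, 7 of 8 striatal genes and 7 of 10 cortical and hippocampal genes were at least 2-fold lower on each array, with medians of -1.44 and -1.66, and -1.04 and -1.30. Forebrain interneuron genes were lower for 7 of 8 against TDAG51+/+ and 4 of 8 against TDAG51-/-Tg2 (medians of -1.36 and -1.06), whereas Pvalb, shared by a class of these cells and by Purkinje cells, was higher. Of 9 detected genes of choroid plexus, blood and pituitary, 1 was higher and 2 lower on the first array and 2 were higher and 2 lower on the second (medians of 0.05 and 0.48). None of them was past 2-fold in the same direction on both arrays.

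**Figure D4:**
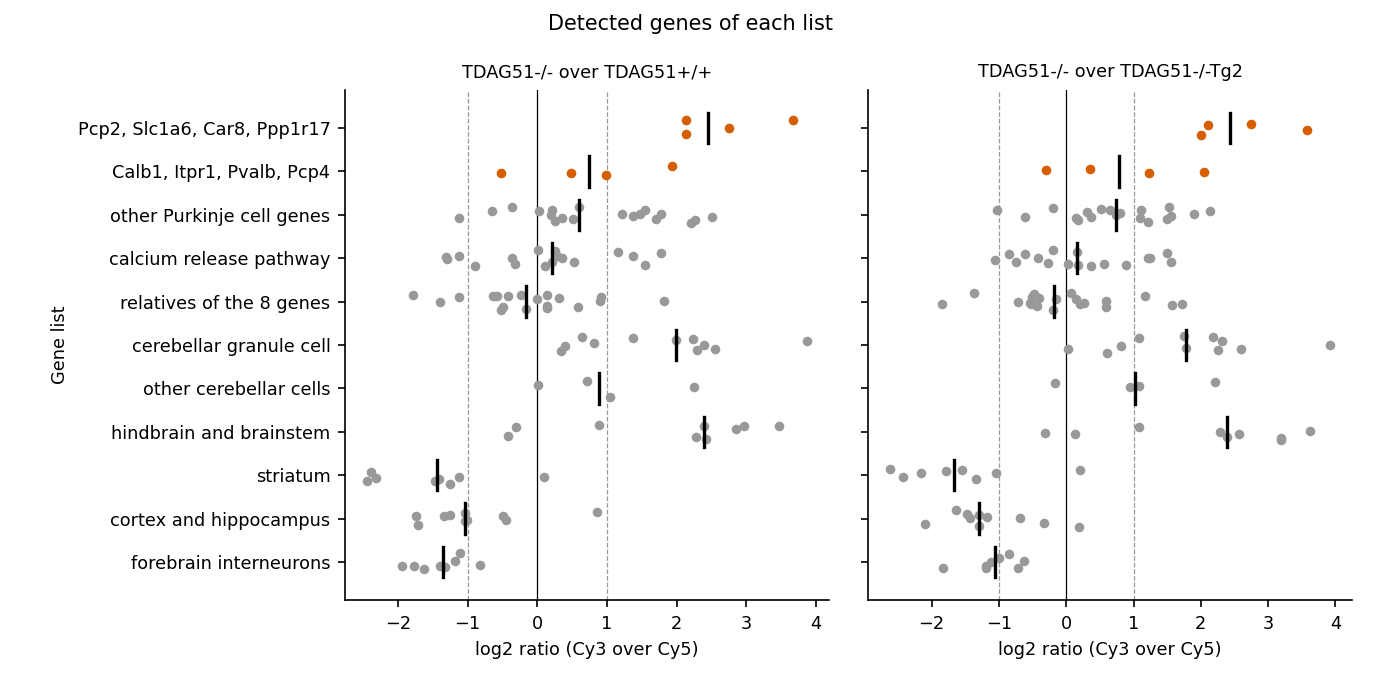
log2 ratio of each detected gene (points, spread vertically for sight) of 11 lists against TDAG51+/+ (left) and TDAG51-/-Tg2 (right), with the list median as a black bar, dashed lines at 2-fold and the 8 Purkinje cell genes in orange. The lists of Purkinje cell, granule cell and hindbrain genes have medians above 0, and those of striatum, cortex and interneurons below 0.

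The genes whose pair of log2 ratios lay nearest to the pair of member medians were S100a8, C330018A13Rik, Srp68, Slco2a1 and Taf6l, at distances from 0.08 to 0.13 over the 2 ratios. A distance over 2 arrays that share a genotype describes size alone.

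**Figure D5:**
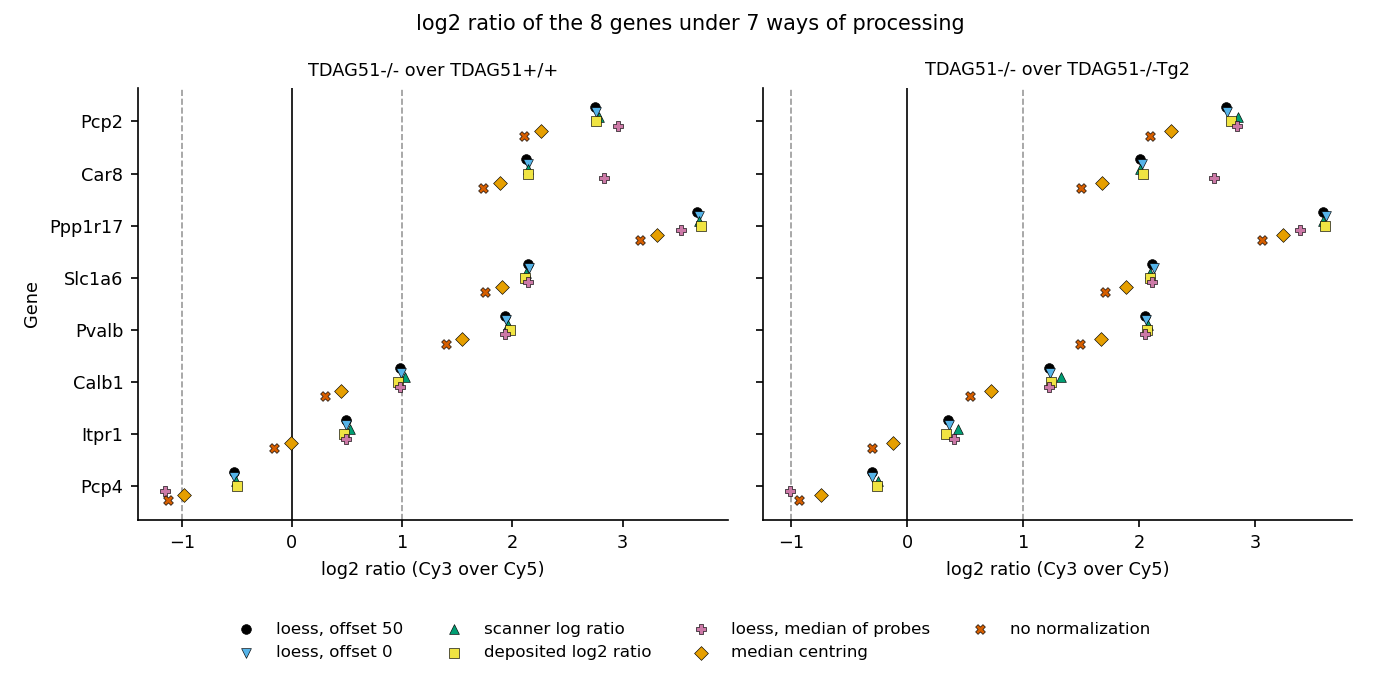
log2 ratio of the 8 genes against TDAG51+/+ (left) and TDAG51-/-Tg2 (right) under 7 ways of processing the same scans, with dashed lines at 2-fold. Pcp2, Car8, Ppp1r17, Slc1a6 and Pvalb stay above 2-fold in each, and Itpr1 lies on both sides of 0.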

How the data were processed

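The deposited scanner files, made with Agilent's Feature Extraction software (9.5.3.1), hold for each spot a mean intensity, a median background intensity and a log10 ratio, Cy5 over Cy3. A table deposited by the authors gives log2 ratios the other way up, Cy3 over Cy5, whose direction was settled by comparison with the scanner ratio (median absolute difference 0.0059 and 0.0058) and whose normalization is not given in the sources used here. Deposited intensity values were background-corrected by normexp with an offset of 50, and each array was loess-normalized, in limma 3.58.1 and R 4.3.3. Control spots were left out, as were 375 and 300 outlier spots, and spots of a probe were averaged. A probe was detected where it was well above background in at least 1 channel. A gene was counted by its brightest probe over both arrays at the 2-fold threshold of the study. Which channel was brighter or dimmer was judged after loess. Where the brighter channel was saturated or the dimmer near background, the fold is a lower bound. Where the dimmer channel was saturated or both were near background, none is given. Probe coordinates are on mm7. The script was tested on simulated data. Tables were made with Python 3.11.15 and pandas 2.3.3. The members and lists were chosen with earlier results of these data known. The genes named were all members, Phlda1, up to 6 leading genes of each list related to the members and up to 2 of each other list, taken by the smaller of the log2 ratios on both arrays, and the 5 genes nearest to the member medians. Values of some listed genes are not reported here, although these genes stay in the counts and medians. Alternatives were offset 0, the scanner and deposited ratios, median centring, no normalization, other filters, leaving out saturated probes, the median of all probes and a 1.5-fold threshold.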

Additional observations from a re-analysis of the deposited data

How the results depend on the processing

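The counts of Purkinje cell genes at least 2-fold higher stayed between 4 and 6 under each alternative that kept the 2-fold threshold. Calb1 was counted in both comparisons by the scanner ratio (1.02 and 1.33). At the 1.5-fold threshold, 6 genes were higher in each comparison and against both controls. Leaving out saturated probes removed Pcp2 from the genes counted, for counts of 4 against TDAG51+/+ and 5 against TDAG51-/-Tg2. It moved the median against TDAG51+/+ from 2.03 to 1.93. With median centring the medians were 1.72 against TDAG51+/+ and 1.68 against TDAG51-/-Tg2, and with no normalization 1.57 and 1.49. Itpr1 turned to -0.013 and -0.12 with median centring and to -0.16 and -0.31 with no normalization. Calb1 fell under 2-fold against TDAG51-/-Tg2 in both settings, and the absence of a member at least 2-fold lower did not hold for Pcp4 without normalization or by the median of its probes. Of all genes past 2-fold against both controls, 60.9% were higher with loess, 44.7% with median centring and 26.8% with no normalization. Bright probes were dimmer in Cy3 before loess (median log2 ratio of -0.55 and -0.57 for genes above an intensity of 8000). The part of brightness in the changing split was not tested. Without normalization the median of all genes shifted by -0.26 and -0.31. No paired analysis was possible because each comparison had 1 array. Leaving out a replicate was not possible for the same reason.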
